A study of Homo sapiens with 6 samples.

Results

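The genes described here present peptides to T cells, and the peaks of 2 histone marks over them were compared in leukemia cells with and without editing of mutant NPM1. The 9 genes were chosen by name and not by a value in these lists. HLA-B, HLA-C, HLA-E and B2M make up the class I group, HLA-DRA, HLA-DPA1, HLA-DPB1 and CD74 the class II group, and CIITA stands apart as the regulator of class II. They were 9 of 20163 protein-coding genes on GRCh37 (hg19), the build of the H3K27Ac peaks, and 9 of 19666 on GRCh38 (hg38), the build of the H3K4me3 peaks. A gene's window was its body with 5 kb on either side, and a promoter peak lay within 1 kb of an annotated transcript start. For H3K27Ac every annotated start was used, up to 16 for CIITA, but for H3K4me3 only 1 start per gene (2 for HLA-DPA1), so promoter counts of the 2 marks do not rest on the same starts. The windows held 50 of 327715 H3K27Ac peaks in the sgNeg library and 41 of 317059 in the sgNpm1A library. They held 37 of 353628 H3K4me3 peaks in the sgNeg library and 6 of 106641 in the sgNpm1A library.

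OCI-AML3 is an established acute myeloid leukemia line that carries mutant NPM1 beside the wild-type allele. Its cells were edited with sgNpm1A, a guide RNA aimed at mutant NPM1, or given sgNeg as the control, and the labels give 3 days for every sample, fewer than the study's own text. Chromatin was precipitated for H3K27Ac, an acetyl mark of active promoters and enhancers, or for H3K4me3, a methyl mark of active promoters. The 6 samples were 1 library for each guide and mark plus 2 inputs, which were not analysed here. With 1 library per group no difference between the guides has a replicate check, so none was tested. Nothing in these libraries measures mutant NPM1 itself, so the editing could not be checked from the peaks. Every label names OCI-AML3, but the H3K27Ac lists bear the tag OCI2 and the H3K4me3 lists OCI3. The study also used OCI-AML2, a line with wild-type NPM1 only. No source explains these tags, so it is not certain that the H3K27Ac values come from the same line or run as the H3K4me3 values.

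Class I molecules are made of a heavy chain (HLA-B, HLA-C and HLA-E encode 3 of them) and beta-2-microglobulin (B2M), and show peptides from inside the cell to CD8 T cells. Class II molecules are pairs of an alpha and a beta chain (HLA-DRA, HLA-DPA1 and HLA-DPB1), which the invariant chain (CD74) guides to the vesicles where they meet peptides from outside the cell. Nearly all nucleated cells express class I, while class II is mostly kept to antigen-presenting cells, where CIITA is the factor without DNA binding of its own that switches the class II promoters on. Monocytes and many leukemic blasts of the myeloid lineage express class II, and CIITA is transcribed from separate promoters in dendritic cells (pI), in lymphocytes (pIII) and after interferon gamma (pIV).

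The lists themselves differed, which bears on every value below. Fold enrichment compares the pileup of fragments with the expected pileup, in the form given with the processing. A peak's percentile is its place by fold enrichment in its own list (100 is the highest), so that it does not depend on the scale of the list. The 99th percentile of fold enrichment was 5.75 in sgNeg H3K27Ac and 4.39 in sgNpm1A H3K27Ac. For H3K4me3 it was 8.53 in sgNeg and 6.10 in sgNpm1A. Of all coding genes, 79.1% had an H3K27Ac promoter peak in sgNeg and 57% in sgNpm1A. The share for H3K4me3 was 68.3% in sgNeg and 9.49% in sgNpm1A, so in the sgNpm1A H3K4me3 list most promoters of the genome had no peak. How much of any difference at the 9 genes comes from this difference between libraries was not tested.

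The proximal promoters of 5 of the genes are printed to show the boxes that the class I promoters share. Each is the 250 bases before a RefSeq transcript start on GRCh38.p14, written 5′ to 3′ in the direction of transcription. Capitals mark matches on either strand to the motifs searched: the Y box CTGATTGG, bound by NF-Y, the core letters TGACG of the cyclic AMP response element, the kB site GGGGATTCC, and the interferon response letters GAAANNGAA and GAANNGAAA.
HLA-B (chr6:31357180-31357429, minus strand): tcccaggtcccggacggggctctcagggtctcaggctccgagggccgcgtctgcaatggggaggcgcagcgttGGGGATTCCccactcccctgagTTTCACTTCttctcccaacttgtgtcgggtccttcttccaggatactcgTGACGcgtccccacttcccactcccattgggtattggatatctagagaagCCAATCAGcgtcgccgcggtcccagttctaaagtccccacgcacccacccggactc
HLA-C (chr6:31272093-31272342, minus strand): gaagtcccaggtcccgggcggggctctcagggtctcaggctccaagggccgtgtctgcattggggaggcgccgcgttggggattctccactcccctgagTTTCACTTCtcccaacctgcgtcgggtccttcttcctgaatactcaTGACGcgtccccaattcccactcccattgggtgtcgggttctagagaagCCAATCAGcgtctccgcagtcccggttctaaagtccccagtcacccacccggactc
B2M (chr15:44711267-44711516, plus strand): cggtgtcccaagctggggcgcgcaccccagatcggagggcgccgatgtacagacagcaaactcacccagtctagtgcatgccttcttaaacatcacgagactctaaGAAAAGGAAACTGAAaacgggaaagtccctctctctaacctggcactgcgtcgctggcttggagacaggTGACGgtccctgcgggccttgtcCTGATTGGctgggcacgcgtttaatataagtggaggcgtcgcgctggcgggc
HLA-DPB1 (chr6:33075740-33075989, plus strand): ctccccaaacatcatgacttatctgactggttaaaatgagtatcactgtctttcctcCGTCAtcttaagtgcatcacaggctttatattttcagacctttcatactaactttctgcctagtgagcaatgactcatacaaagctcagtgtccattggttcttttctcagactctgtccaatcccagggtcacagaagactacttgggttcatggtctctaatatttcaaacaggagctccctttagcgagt
CD74 (chr5:150412911-150413160, minus strand): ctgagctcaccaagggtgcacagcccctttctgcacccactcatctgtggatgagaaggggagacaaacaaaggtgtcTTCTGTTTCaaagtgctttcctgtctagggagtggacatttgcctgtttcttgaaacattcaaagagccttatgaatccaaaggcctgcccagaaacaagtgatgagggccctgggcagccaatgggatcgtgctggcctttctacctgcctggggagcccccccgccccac

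The 3 class I promoters each held a Y box close to the start, at -56 in HLA-B and HLA-C and at -52 in B2M, counted to the first base of the match. The Y box letters occur in 3.97% of the 35116 promoters of the table, which are each 300 bases long. A TGACG match stood upstream of it at -106 in HLA-B, -105 in HLA-C and -75 in B2M, and is found in 24.6% of promoters. The kB letters were in HLA-B only, at -177, and in 0.285% of promoters. GAANNGAAA, which was added after the letters had been seen, matched at -155 in HLA-B and -151 in HLA-C and is in 7.66% of promoters, whereas GAAANNGAA matched at -144 and -138 in B2M, where the matches overlap, and is in 8.11%. The CD74 promoter held GAAANNGAA at -172, and that of HLA-DPB1 TGACG at -193. None of the promoters matched AACNGATG, the X box core searched for, which occurs in 1.99% of promoters. Only these exact letters were searched. CCAAT, which is part of the Y box letters on the other strand, also stands in the printed CD74 and HLA-DPB1 sequences and was not counted. No lack of a Y box in the class II promoters is therefore read from the search.

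Base composition differed as well. The 300-base promoters of HLA-B, HLA-C and B2M held 22, 19 and 22 CpG dinucleotides, above the median of 14 over all promoters. Those of HLA-DPB1 and CD74 held 2 and 3. HLA-DPA1 has starts of both kinds, with 4 CpG at the start used at 33073649 and 27 at the more upstream start at 33080748 on chromosome 6. HLA-E, HLA-DRA and CIITA have no promoter entry in the table. HLA-B and HLA-C were identical at 90.9% of the aligned promoter bases, with a longest shared run of 25 bases. Reads may be placed at the wrong copy, which would make the peaks of these genes less certain, but this was not tested. Only the 300-base promoters were compared, and the H3K4me3 peaks of both genes lay further into the gene.

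In the control cells the class I promoters carried both marks, and the promoters of the class II chains carried little or none, with CD74 marked by H3K27Ac alone. An H3K27Ac promoter peak was listed in sgNeg for 8 of the 9 genes, beside 79.1% of all coding genes, and HLA-DRA was the exception. Promoter peaks at or above percentile 90 were listed for 3 of 4 class I genes, for 0 of 4 class II genes and not for CIITA, beside 52.7% of all coding genes. For H3K4me3, 5 of the 9 genes had a promoter peak in sgNeg, beside 68.3% of all coding genes. These were the 4 class I genes and HLA-DPB1. All 4 class I genes and no class II gene were at or above percentile 90, beside 47.3% of all coding genes. HLA-DRA, HLA-DPA1, CD74 and CIITA had no H3K4me3 peak within 1 kb of the starts used, and a peak at an internal CIITA start, which this count does not hold, is described with that gene.

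**Figure D1:**
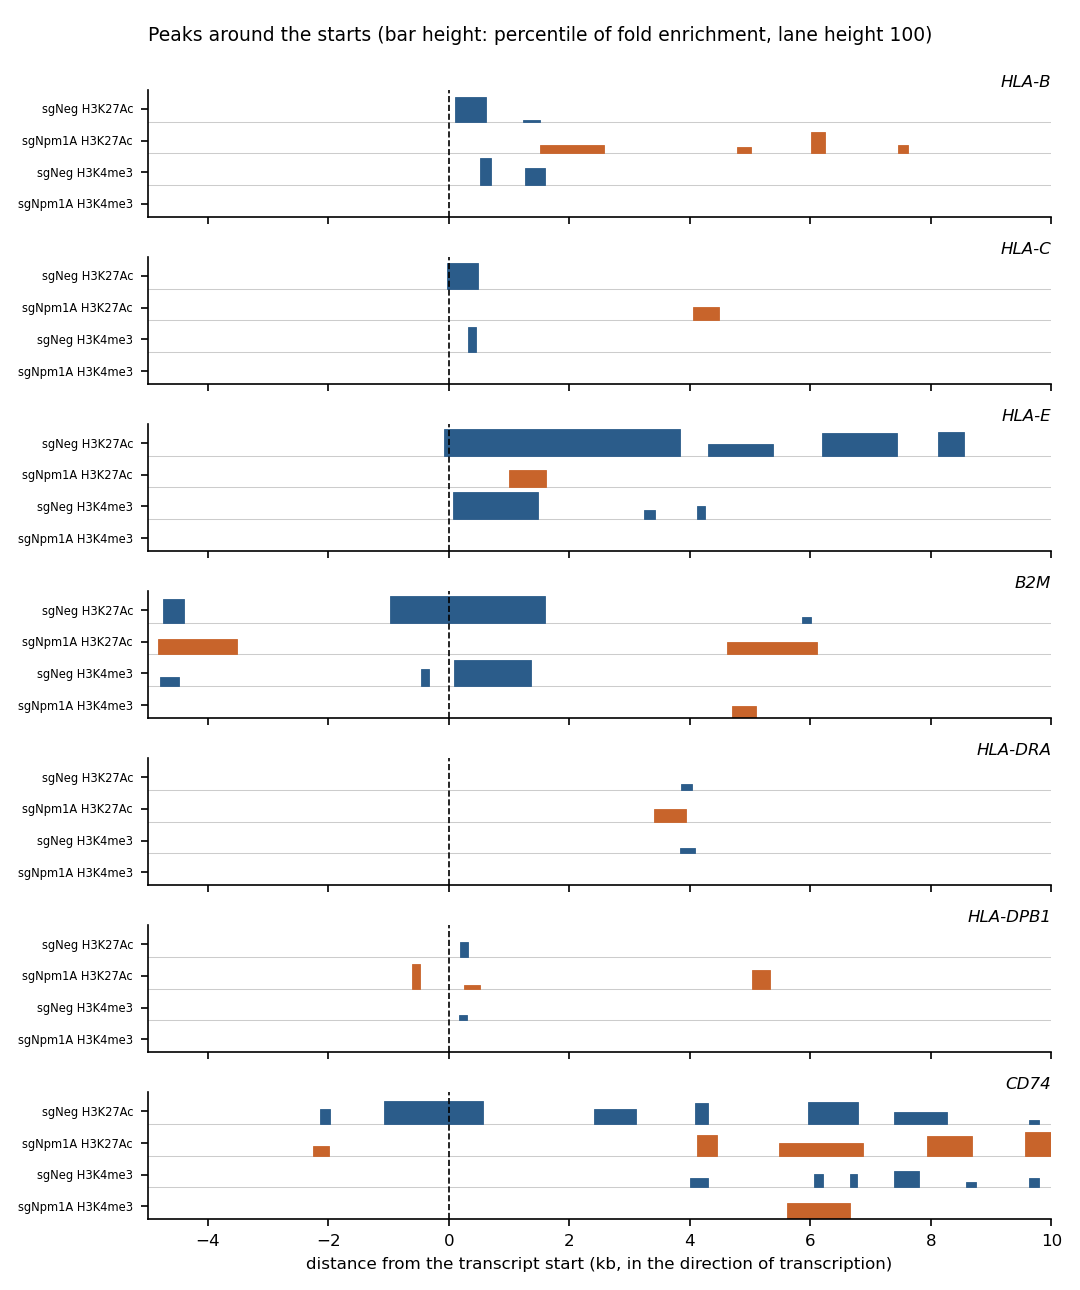
Peaks of the 4 lists around the start of 7 genes, by distance from the start in kb along the direction of transcription (dashed line at 0; for HLA-B H3K27Ac the start nearest its highest sgNeg peak). Each bar is a peak, its width to scale and its height the percentile of fold enrichment in its list, in blue for sgNeg and orange for sgNpm1A. The sgNeg bars of HLA-C, HLA-E and B2M stand at or just inside the start for both marks, and no sgNpm1A bar lies on the dashed line of any of these genes.

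HLA-E, a class I heavy chain recognised by natural killer cells, had the widest promoter domain of the group. Its sgNeg H3K27Ac peak at chr6:30457208-30461125 (GRCh37) was 3918 bp wide and 5.07-fold enriched, with a q-value of 9.47e-09, a percentile of 98.3 by fold and 98.2 by width. It covered the start and ran along most of the gene, which is 4686 bp long. Together with 3 further peaks it put 45.4% of the HLA-E window under H3K27Ac, where the median coding gene had 10.2%. The sgNpm1A list had 1 peak here, at chr6:30458291-30458902, of 612 bp and 3.07-fold, at percentile 65.4. It began 1002 bp inside the gene and left 4.17% of the window covered, where the median coding gene had 6.39%.

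H3K4me3 at HLA-E followed the same outline. The sgNeg peak at chr6:30489575-30490982 (GRCh38) was 1408 bp wide and 8.74-fold enriched at its summit, at percentile 99.1, and began 66 bp past the start. Its summit held 41 fragments, with an exact Poisson 95% interval of 29.4 to 55.6 that covers counting error only. The sgNpm1A list had no peak in the HLA-E window. A summit of the same fold enrichment would have held 33.3 fragments in that library, whose lowest listed summit held 10. This count assumes that folds carry over between the libraries. The 99th percentile of fold was 8.53 in sgNeg and 6.10 in sgNpm1A, so why no peak was listed cannot be read from it. The same holds for the counts at equal fold given below.

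B2M, the light chain that every class I molecule needs, had the highest H3K27Ac peak of the 9 genes. The sgNeg peak at chr15:45002571-45005152 (GRCh37) was 2582 bp wide and 5.58-fold, with a q-value of 1.54e-09 and a percentile of 98.9. It also covered starts of PATL2, which begins 42 bp and 35 bp away on the other strand, so the peak cannot be assigned to B2M alone. In sgNpm1A no peak covered that start. The nearest lay at chr15:44998733-45000029, upstream, of 1297 bp and 3.00-fold at percentile 57.8, and at chr15:45008171-45009660, of 1490 bp and 2.90-fold at percentile 45.2, over the distal exons. The second was 156 bp from an internal transcript start and for that reason counts as a promoter peak. The covered share of the window was 17.6% in sgNeg and 15.9% in sgNpm1A, so the covered share was close although only sgNeg had a peak over the start.

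The B2M start was marked by H3K4me3 in sgNeg only. The peak at chr15:44711603-44712883 (GRCh38) was 1281 bp wide and 7.70-fold, at percentile 98.6, with 36 fragments at the summit (interval 25.2 to 49.8). A second peak of 123 bp and 16 fragments lay upstream of the start. The sgNpm1A list had 1 peak in the window, of 405 bp and 13 fragments at percentile 43.9, 4701 bp into the gene. At equal fold the promoter summit would have held 29.3 fragments in sgNpm1A.

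HLA-B and HLA-C, the classical heavy chains among the 9 genes, had narrower peaks. The sgNeg H3K27Ac peak of HLA-C at chr6:31239419-31239944 (GRCh37) was 526 bp wide and 3.69-fold, at percentile 94.7, and covered the start. That of HLA-B at chr6:31324328-31324842 was 515 bp wide and 3.31-fold, at percentile 89.6, and lay 93 bp inside a start. HLA-B thus stood just outside the limit of percentile 90 used above, and HLA-C inside it. In sgNpm1A, HLA-C had 1 peak, of 439 bp at percentile 49.9, beyond the 3′ end of the gene. HLA-B had 6 peaks in sgNpm1A, the highest of 228 bp at percentile 80.5 in the 3′ flank and the widest of 1067 bp at percentile 31.2 over the distal exons. HLA-B was thus the class I gene with more of its window under H3K27Ac in sgNpm1A (9.25%) than in sgNeg (3.45%), although none of its sgNpm1A peaks overlapped its highest sgNeg peak.

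For H3K4me3 both genes had a short peak shortly past the start in sgNeg. The HLA-B peak at chr6:31356488-31356663 (GRCh38) was 176 bp wide and 7.49-fold, at percentile 98.4, with 35 fragments (24.4 to 48.7), and began 516 bp past the start. A second HLA-B peak, of 330 bp with 16 fragments at percentile 62.6, began 1270 bp past it. The HLA-C peak at chr6:31271642-31271773 was 132 bp wide and 4.58-fold, at percentile 91.3, with 21 fragments (13 to 32.1), 319 bp past the start. The highest peaks of both genes stood above most of the list by fold but not by width, at width percentiles of 43.3 and 18.3, against 99.3 for HLA-E and 99.1 for B2M. The sgNpm1A list had none in either window, where equal folds to the highest peaks would have held 28.4 and 16.99 fragments.

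The class II chains had few and low peaks in the control cells. HLA-DRA, the alpha chain shared by all HLA-DR molecules, had a single H3K27Ac peak in sgNeg, at chr6:32411505-32411689 (GRCh37), of 185 bp and 2.61-fold with a q-value of 0.0554, at percentile 20.9. It lay 3841 bp from the start, over the distal exons. The single sgNpm1A peak overlapped it, at chr6:32411061-32411595, with 535 bp, 2.91-fold and percentile 46.1. For H3K4me3 the sgNeg list had 1 peak of 241 bp and 13 fragments at percentile 19.1, 3840 bp past the start, and sgNpm1A had none. The start of HLA-DRA was thus without a peak of either mark in all 4 lists.

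HLA-DPA1 and HLA-DPB1, which encode the chains of HLA-DP, are transcribed in opposite directions from overlapping gene records, and their windows share 14786 bp on GRCh37, so several peaks count for both. In sgNeg the shared H3K27Ac peak at chr6:33043957-33044079 was 123 bp wide and 2.82-fold, at percentile 56.5, and lay 170 bp inside HLA-DPB1. HLA-DPA1 had a further peak of 143 bp at percentile 17.7, 6 bp from an internal start. In sgNpm1A, 3 shared peaks were listed. The highest, at chr6:33043146-33043285, was 140 bp wide and 3.57-fold, with a q-value of 0.00138 and a percentile of 92.8, and lay 482 bp upstream of HLA-DPB1 inside HLA-DPA1. At a width percentile of 0.220 it was also among the narrowest peaks of its list. The next, of 289 bp at percentile 68.2, lay 82 bp from an internal HLA-DPB1 start and 248 bp from the most upstream HLA-DPA1 start. The covered share of the HLA-DPB1 window was 2.41% in sgNeg and 9.14% in sgNpm1A, and that of HLA-DPA1 1.02% and 2.60%.

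H3K4me3 over the HLA-DP pair stayed near the lowest summit that the lists hold. The peak of sgNeg at chr6:33076154-33076283 (GRCh38), shared by both windows, was 130 bp wide with 13 fragments (6.92 to 22.2) at percentile 19.1, 164 bp inside HLA-DPB1. The sgNpm1A list had none there, and its peak in the HLA-DPB1 window was in the 3′ flank, with 13 fragments at percentile 43.9. An equal fold for the sgNeg peak of HLA-DPB1, and for that of HLA-DRA, would have held 10.4 fragments in sgNpm1A, where the lowest listed summit held 10.

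CD74, the invariant chain, differed from the other class II genes in having more of its window under H3K27Ac peaks in both libraries. In sgNeg 9 peaks covered 26.8% of the window, and in sgNpm1A 7 peaks covered 23.1%. Its promoter peak in sgNeg at chr5:149791962-149793613 (GRCh37) was 1652 bp wide and 3.22-fold, at percentile 86.6 by fold and 92.2 by width, and covered the start. No sgNpm1A peak lay within 1 kb of that start, and the closest one inside the gene was 3902 bp from it. The highest sgNpm1A peak, at chr5:149782467-149782968, was 502 bp wide and 3.37-fold, also at percentile 86.6, near the 3′ end of the gene. Of the 9 sgNeg peaks 6 overlapped a sgNpm1A peak, and 6 of the 7 sgNpm1A peaks overlapped a sgNeg peak. The share over all listed peaks is not given here, so no trait of CD74 is read from these counts.

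H3K4me3 over CD74 was low and away from the start. The 8 sgNeg peaks had 13 to 16 fragments at the summit and the nearest lay 3999 bp past the start. The 2 sgNpm1A peaks, of 327 bp and 1045 bp with 13 and 14 fragments, each overlapped peaks of sgNeg, and these were the only H3K4me3 peaks of the 9 genes that overlapped between the guides. How often peaks overlap over the whole H3K4me3 lists is not given here either. CD74 also had the smallest difference in percentile between the guides for H3K4me3, at 62.6 in sgNeg and 60.5 in sgNpm1A.

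The guides were then compared by the highest peak of each window. For H3K27Ac it had a lower percentile in sgNpm1A for 5 of the 9 genes, beside 62.5% of all coding genes. These were all 4 class I genes and CD74, whose values differed by 0.05 percentile points only. The class I differences, sgNpm1A minus sgNeg, were -9.18 for HLA-B, -44.8 for HLA-C, -32.9 for HLA-E and -41.0 for B2M, with a median of -37.0, where the median of all coding genes was -3.62. The other 3 class II genes had higher values in sgNpm1A, by 25.2 for HLA-DRA and by 36.4 for HLA-DPA1 and HLA-DPB1, which share the peak, and CIITA by 2.43. That shared peak is nearest to a start of HLA-DPB1. When peaks nearest to another gene's start are left out, a setting chosen after seeing the data, HLA-DPA1 turns to 17.7 in sgNeg and 0 in sgNpm1A, CIITA has 88.9 and 98.4, and 6 of the 9 genes are lower in sgNpm1A. The count of 5 is close to the share over all genes.

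**Figure D2:**
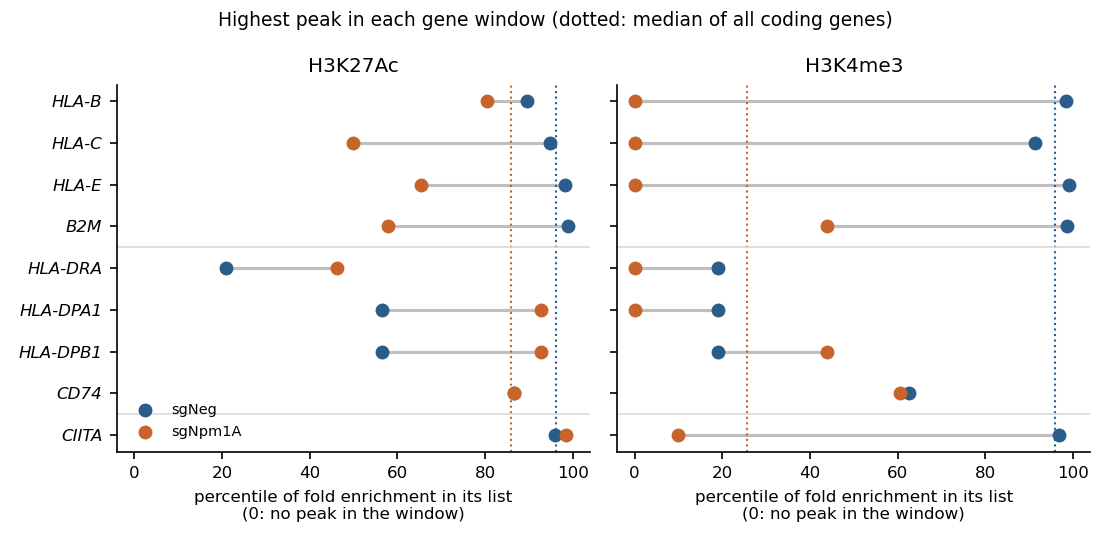
Percentile of the highest peak in each gene's window, for H3K27Ac on the left and H3K4me3 on the right, in blue for sgNeg and orange for sgNpm1A, with 1 library each and 0 where the window held no peak. Dotted lines are the medians over all coding genes (96.2 and 85.8 for H3K27Ac, 95.9 and 25.6 for H3K4me3). In sgNeg the class I genes at the top lie between 89.6 and 99.1 in both panels, with HLA-B and HLA-C to the left of the sgNeg line for H3K27Ac and HLA-C for H3K4me3, while HLA-DRA, HLA-DPA1 and HLA-DPB1 lie further left, at 56.5 or below.

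For H3K4me3 the highest peak had a lower percentile in sgNpm1A for 8 of the 9 genes, beside 80.4% of all coding genes, so the count itself says little about these genes. HLA-DPB1 was the exception, at 19.1 in sgNeg and 43.9 in sgNpm1A, but both peaks had 13 fragments at the summit and the lists differ in length, so no increase is read from it. The sgNpm1A peak is nearest to a start of HLA-DPA1, and without such peaks HLA-DPB1 turns to 19.1 and 0. The median difference was -94.9 for class I and -10.6 for class II, where that of all coding genes was -34.4. The highest sgNeg peak of HLA-DRA, HLA-DPA1 and HLA-DPB1 was at percentile 19.1, so these genes could differ downward by no more than that. No H3K4me3 promoter peak was listed in sgNpm1A for any of the 9 genes, beside 9.49% of all coding genes. This count covers the 1 or 2 starts used per gene, and internal starts, such as the one that gave B2M an H3K27Ac promoter peak in sgNpm1A, were not used for H3K4me3.

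Promoter peaks of H3K27Ac in sgNpm1A were listed for 5 of the 9 genes, beside 57% of all coding genes. They belonged to HLA-B, B2M, HLA-DPA1, HLA-DPB1 and CIITA, and those of HLA-B and B2M lay 152 bp and 156 bp from internal starts. No class I gene had a sgNpm1A peak over the start next to its highest sgNeg promoter peak.

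The covered share of the windows gave the same order of classes in sgNeg. The class I median was 10.8% under H3K27Ac and 7.11% under H3K4me3, and the class II median 1.82% and 1.42%, where the median of all coding genes was 10.2% and 4.04%. In sgNpm1A the H3K27Ac medians were 6.71% for class I and 6.34% for class II, and the H3K4me3 medians were 0% and 0.989%, where the medians of all coding genes were 6.39% and 0.628%. With only peaks of a q-value under 0.01, the H3K27Ac median of class II was 0% in sgNeg and those of sgNpm1A were 0.491% for class I and 1.72% for class II. The ranges overlapped in sgNeg, with class I from 3.45% to 45.4% under H3K27Ac and class II from 1.02% to 26.8%, because CD74 had more than HLA-B, HLA-C and B2M.

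**Figure D3:**
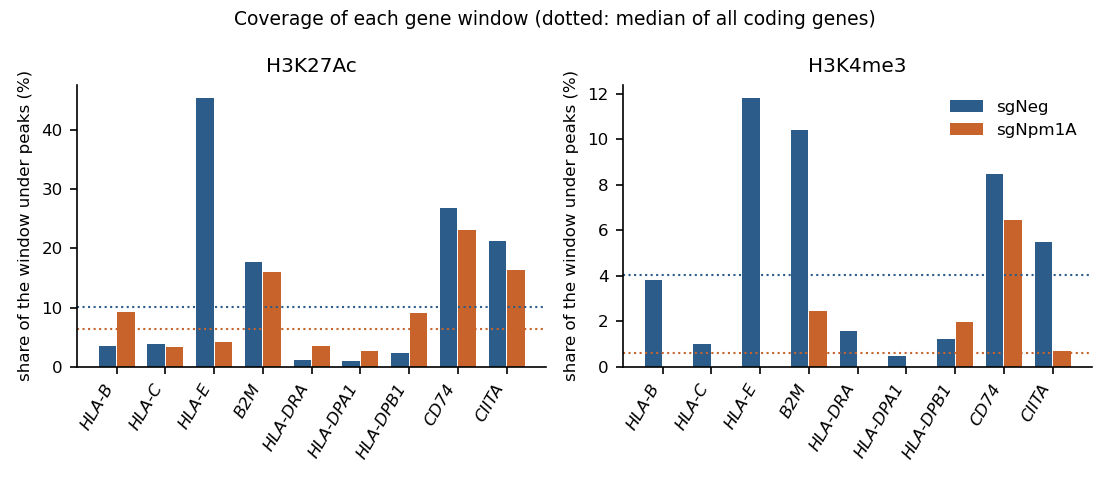
Share of each gene's window (gene body with 5 kb on either side) under peaks, in percent, for H3K27Ac on the left and H3K4me3 on the right, with blue bars for sgNeg and orange bars for sgNpm1A, 1 library each. Dotted lines are medians over all coding genes. HLA-E has the tallest bar under both marks in sgNeg, and B2M, CD74 and CIITA have H3K27Ac bars above the median lines in both libraries.

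CIITA was examined start by start, because its promoters are used in different cells. The gene spans chr16:10960079-11036878 on GRCh37 (76800 bp) and chr16:10866206-10943021 on GRCh38 (76816 bp), and 20 annotated transcripts begin at 9 places when starts within 500 bp are joined. By their order along the gene, the first is called pI (10960079 to 10960117), the next pIII (10971055 to 10971188) and the third pIV (10972826). Coding length bears out pIII only, which has 9 transcripts and the longest coding length of 3393 bp. The longest at pI was 782 bp and at pIV 532 bp, so these 2 names rest on order alone. The records of the 2 builds differ by 16 bp in length, so positions are given below as distance from the record start, at which pI lies at 0, pIII at 10976 bp and pIV at 12747 bp.

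The pIII start had weak H3K27Ac peaks on both sides in the control cells. In sgNeg a peak of 271 bp, 2.90-fold at percentile 65.6 with a q-value of 0.0182, ended 273 bp upstream of pIII and a peak of 619 bp, 2.61-fold at percentile 21.3 with a q-value of 0.0539, began 149 bp downstream of it. No sgNeg peak lay within 1 kb of pI, the nearest of 265 bp at percentile 42.0 being 1104 bp away. The pIV start was 871 bp from the peak downstream of pIII and had none of its own. In the intron between pI and pIII, 2 wide peaks stood side by side, at chr16:10962983-10965772 (2790 bp, 3.29-fold, percentile 88.9) and chr16:10966411-10969422 (3012 bp, 2.98-fold, percentile 73.3). These were higher than the peaks beside pIII, and stood at width percentiles of 96.7 and 97.1.

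The sgNpm1A H3K27Ac list had a peak at pI and none at pIII. The lists have different floors, with a lowest −log10 q-value of 1.15 in sgNeg and 1.36 in sgNpm1A, and the peak downstream of pIII would not have been listed in sgNpm1A at its sgNeg q-value. A peak at chr16:10959902-10960464 (563 bp, 3.10-fold, q-value 0.00893, percentile 68.5) covered pI. The nearest peaks to pIII and pIV were 2432 bp and 4203 bp away. The intron between pI and pIII held 2 peaks of 569 bp and 450 bp, at percentiles 34.2 and 19.3, in place of the wide ones. Further along the gene, the widest sgNpm1A peak at chr16:11018474-11022024 had 3551 bp, a width percentile of 99.3 and a fold percentile of 83.8, over a stretch where sgNeg had peaks of 587 bp and 497 bp. The highest was a peak of 157 bp at chr16:11032828-11032984, 4.13-fold at percentile 98.4, near the 3′ end. Of 27 sgNeg peaks in the window 15 overlapped a sgNpm1A peak, and 14 of 18 sgNpm1A peaks overlapped a sgNeg peak. Here too the share over all listed peaks is not given. With 1 library per guide the difference at pI and pIII has no replicate.

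**Figure D4:**
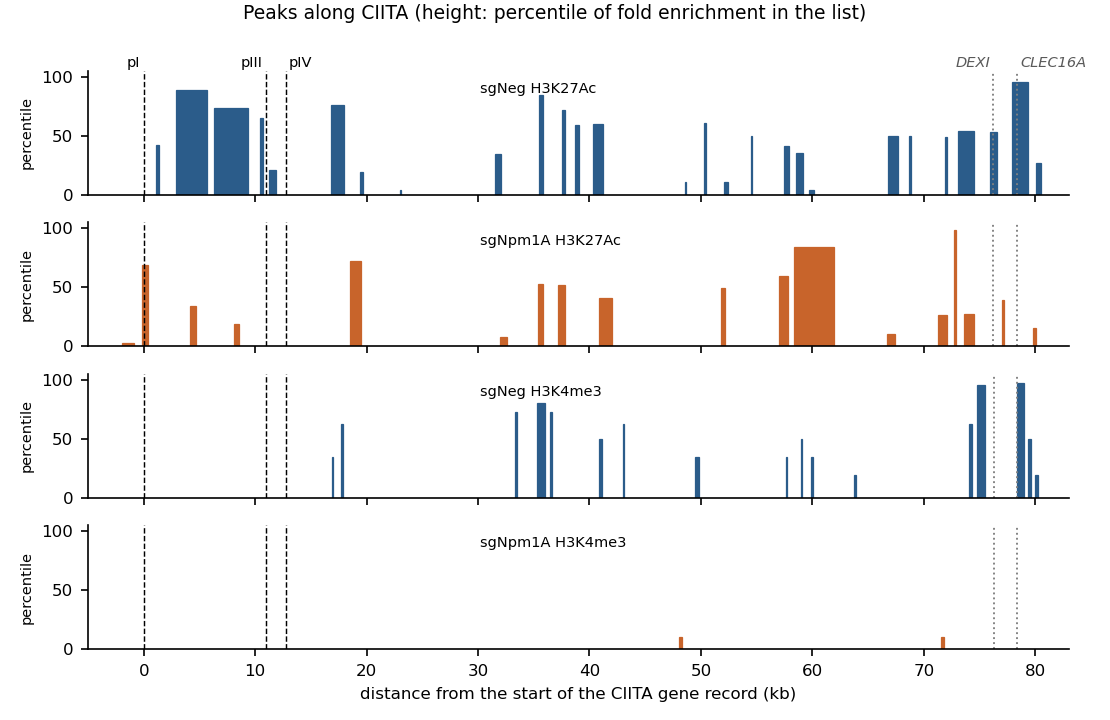
Peaks along CIITA by distance from the start of its gene record in kb, 1 panel per list, with the height of a bar the percentile of fold enrichment in that list and its width to scale. Dashed lines are the pI, pIII and pIV starts and dotted lines the most distant DEXI and CLEC16A starts in the window. Blue H3K27Ac bars flank pIII and stand in the intron before it in sgNeg, an orange bar covers pI in sgNpm1A, and H3K4me3 has no bar at any of the 3 promoters.

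H3K4me3 was not listed at pI, pIII or pIV with either guide. The nearest sgNeg peaks were 11355 bp, 5752 bp and 4114 bp away. Within the gene, the highest sgNeg peak nearest to a start of CIITA itself had 687 bp, 3.95-fold and 18 fragments (10.7 to 28.4) at percentile 80.0, from 35311 bp to 35997 bp. A transcript with no coding sequence in the annotation starts there, at 35337 bp. H3K27Ac peaks of 358 bp in sgNeg (percentile 84.7) and 408 bp in sgNpm1A (percentile 52.8) lay 146 bp and 51 bp past this start, so 3 of the 4 lists had a peak at or near it. The sgNpm1A H3K4me3 list had 2 peaks in the window, of 271 bp and 345 bp, both with 11 fragments at percentile 9.84.

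The highest peaks of the CIITA window in sgNeg belonged to its neighbours. The top H3K27Ac peak, of 1443 bp and 3.92-fold at percentile 95.9, covered starts of CLEC16A, and another of 555 bp at percentile 53.5 covered the start of DEXI. The top H3K4me3 peaks, of 627 bp with 27 fragments at percentile 96.8 and of 692 bp with 24 fragments at percentile 95.2, lay 3 bp from the CLEC16A start and 775 bp from the DEXI start. The window percentiles of CIITA in sgNeg, 95.9 and 96.8, therefore describe the 3′ neighbours, and its own highest were 88.9 and 80.0.

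Further genes of the pathways were counted in the same way. Of 15 other genes of the class I path (heavy chains, peptide transporter, immunoproteasome and chaperones), an H3K27Ac promoter peak was listed in sgNeg for 15 and an H3K4me3 promoter peak for 12, the exceptions being ERAP2, HLA-F and HLA-G. At or above percentile 90 were 11 and 10 of them. Genes with the same promoter percentile, as where neighbours share a peak, were each counted. The shares over all coding genes were 79.1% and 68.3% with a promoter peak, and 52.7% and 47.3% at or above percentile 90. Of 11 other class II genes, 7 had an H3K27Ac promoter peak in sgNeg, and HLA-DRB1, HLA-DRB5, HLA-DQA1 and HLA-DQB1, the remaining classical chains, had no promoter peak of either mark. These chains had no peak anywhere in their windows in any list, and whether reads could be placed there was not tested. HLA-DMA and HLA-DMB, the peptide editor of class II, and CTSS, a protease that trims the invariant chain, were at percentiles 99.9, 97.1 and 95.9 for H3K27Ac. Peaks at any annotated start were counted, and whether these peaks belong to neighbouring genes was not checked. HLA-DMA and HLA-DMB had no H3K4me3 promoter peak in sgNeg, and their highest H3K4me3 window peaks were at percentiles 34.4 and 62.6. For H3K4me3, 3 of the 11 had a promoter peak (CTSS, HLA-DOA and IFI30) and 0 were at or above percentile 90. The 13 regulators that both pathways use, such as RFX5 and IRF1, all had promoter peaks of both marks in sgNeg.

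**Figure D5:**
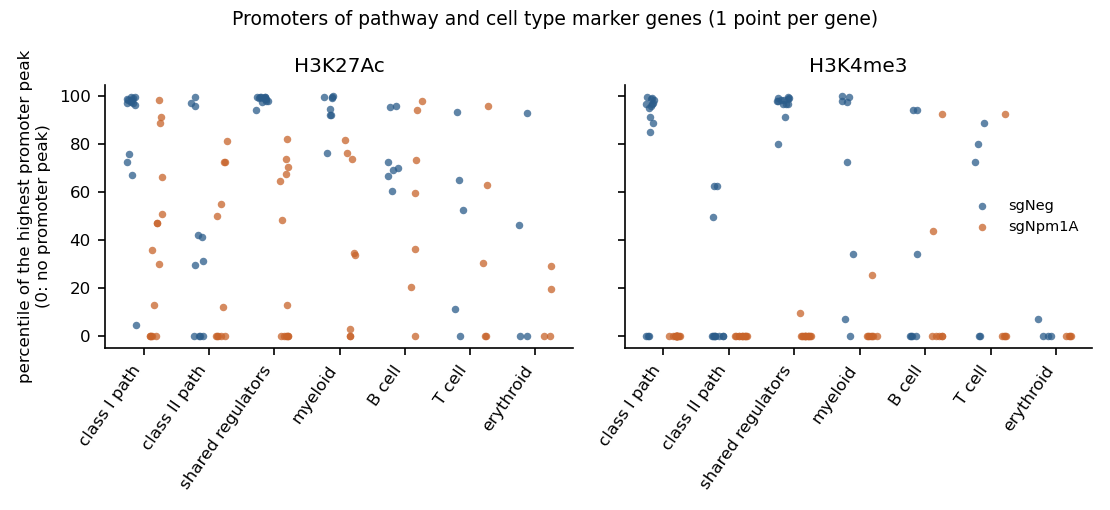
Percentile of the highest promoter peak (0 where none) of pathway genes other than the 9 and of cell type markers, 1 point per gene, in blue for sgNeg and orange for sgNpm1A, with H3K27Ac on the left and H3K4me3 on the right. Points are spread sideways for legibility only. Class I genes and the shared regulators crowd the top in sgNeg under both marks, class II genes are spread for H3K27Ac and mostly at 0 for H3K4me3, and nearly all orange H3K4me3 points are at 0.

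In sgNpm1A, 10 of the 15 class I genes, 6 of the 11 class II genes and 7 of the 13 regulators had an H3K27Ac promoter peak, and 0, 0 and 1 had an H3K4me3 promoter peak, beside 57% and 9.49% of all coding genes. The highest window peak had a lower H3K27Ac percentile in sgNpm1A for 14 of 15 class I genes, 4 of 11 class II genes (3 were higher) and 13 of 13 regulators, beside 62.5% of all coding genes. The remaining class II genes, HLA-DRB1, HLA-DRB5, HLA-DQA1 and HLA-DQB1, had no H3K27Ac window peak with either guide and so could not be lower. All 13 regulators had a promoter peak at or above percentile 90 in sgNeg, so they had little room to be higher. TAP1, TAP2, PSMB8 and PSMB9 had the same highest percentile in sgNeg, 98.7, and were each counted. Among the cell type markers described below, 7 of 8 myeloid, 4 of 7 B cell, 1 of 5 T cell and 2 of 4 erythroid genes were lower. NLRC5, the class I counterpart of CIITA, had an H3K27Ac promoter peak at percentile 98.9 in sgNeg and 98.5 in sgNpm1A. Its H3K4me3 promoter peak was at 91.3 in sgNeg and was not listed in sgNpm1A.

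The cell type of the line was checked with marker genes, against the same shares over all coding genes in sgNeg (79.1% and 68.3% with a promoter peak, 52.7% and 47.3% at or above percentile 90). Of 8 myeloid markers, 8 had an H3K27Ac promoter peak and 7 an H3K4me3 promoter peak in sgNeg, and 7 and 4 were at or above percentile 90. Of 7 B cell markers, 7 and 3 had one, and 2 and 2 were at or above percentile 90. Promoter peaks alone thus did not separate these lists for H3K27Ac. T cell markers had one in 4 and 3 of 5 genes, and erythroid markers in 2 and 1 of 4.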

How the data were processed

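OCI-AML3 cells given sgNeg or sgNpm1A were profiled for H3K27Ac and H3K4me3 by ChIPmentation, with 1 library per group, and titles gave the groups. Each library had its own peak call by the authors. The submitters' processing notes name bcl2fastq 2.17, Trimmomatic 0.33, Bowtie 1.1.2, MACS2 2.1.0 and deepTools without saying how each was used. The peak threshold, the use of the inputs and any shift for the transposase are not given in the sources used here. The H3K4me3 folds of each list fit a single background value, so no input signal that varies by position entered them. For H3K27Ac the use of the inputs is not known. The deposited columns hold a fold enrichment (a ratio to the expected pileup, averaged over the region for H3K27Ac and taken at the summit for H3K4me3), the matching −log10 p-value and −log10 q-value, and a score that rounds the latter and was not used.

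The deposited notes and the study's methods name hg38. H3K27Ac peaks on chromosome 1 end at 249218478 and 249212461, past its end in hg38, and were placed on GRCh37 with every transcript start of GENCODE version 44. H3K4me3 peaks on chromosome 17 end at 83201880 and 83201881, past its end in hg19, and were placed on GRCh38 with RefSeq gene records, plus the starts in its promoter table. HLA-B thus has longer annotated transcripts for H3K27Ac than for H3K4me3. Main chromosomes were used and no coordinates converted.

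Python 3.11.15 with pandas 2.3.3, numpy 2.4.6, scipy 1.17.1 and matplotlib 3.10.9 computed overlaps (1 bp or more), covered shares and percentiles with ties averaged. The steps were tested on simulated data. H3K4me3 folds were read as the pileup plus 1 over the background pileup plus 1. On that reading the pileups were whole fragments for 100% of peaks (tolerance 0.01 fragments). This gave the fragments at each summit and a background pileup of 3.81 in sgNeg and 2.93 in sgNpm1A. Read depth is otherwise unknown. The genes and lists were chosen with earlier results of these data known. All 9 genes are named, and of the pathway lists those in counts of 5 or fewer, with RFX5, IRF1 and NLRC5 chosen after their values were seen. No test was run. Alternatives changed the window, the promoter size, the q-value limit, the ranking and the peak set.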

Additional observations from a re-analysis of the deposited data

How the results depend on the processing

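Of 66 recomputed values, 46 stayed within 1.5 times the value given and 20 did not. With only the 20000 peaks of lowest p in each list, the genes with an H3K27Ac promoter peak became 3 in sgNeg and 0 in sgNpm1A, those lower in sgNpm1A 3, those with an H3K4me3 promoter peak in sgNeg 3, and those lower in H3K4me3 4. At a q-value under 1e-05 the H3K27Ac promoter counts were 2 in sgNeg and 0 in sgNpm1A. At a q-value under 0.01 the sgNpm1A count was 3, and the H3K27Ac class medians of the covered share were 0% for class II in sgNeg, 0.491% for class I and 1.72% for class II in sgNpm1A. Promoters of 2 kb on either side gave 8 in sgNpm1A for H3K27Ac, and ranking by width gave 3 genes lower in sgNpm1A. Without flanks the class I medians were 18.9% (sgNeg) and 11.8% (sgNpm1A) for H3K27Ac and 17.3% for sgNeg H3K4me3, and the class II medians for H3K4me3 were 2.81% in sgNeg and 0% in sgNpm1A. Flanks of 10 kb gave a class I median of 4.65% for sgNeg H3K4me3. Without peaks nearest to another gene's start, an alternative chosen after seeing the data, the class II H3K4me3 median in sgNpm1A was 0%. The count of 0 H3K4me3 promoter peaks in sgNpm1A held under every setting tried, none of which added starts. No paired analysis was possible because each group is 1 library. Weak peaks carry most class II values, so those depend on the limit for calling a peak.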
